A study of Mus musculus with 16 samples.

Results

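The aorta of ovariectomized, ApoE-deficient mice given medroxyprogesterone acetate (MPA) was compared with the aorta of mice given placebo pellets, with 4 arrays in each group. These 8 arrays of the 16 in the series were chosen by their labels, and the probes by detection. Of 41174 probes, 22331 were well above background on at least 4 of the 8 arrays, 22292 of them had enough values to be tested, and they named 13380 genes. All mice were female C57BL/6 animals without functional ApoE, a genotype prone to atherosclerosis, and all had lost their ovaries at 4 to 5 weeks of age. A pellet under the skin then delivered either MPA or no hormone, with a release time of 90 days, while a high-fat Western-type diet was fed to both groups. Aortas were taken after 78 to 90 days and frozen; the piece began behind the arch and ended just above the renal branches. The dose of MPA is not given in the labels. The placebo group was matched to MPA by the letter M in its title and by the slides that both groups share. The labels number the samples without saying that each came from its own animal, and the tests can therefore reflect technical as well as biological spread. Both groups lack ovaries and ApoE, so the comparison is of MPA with no hormone under those conditions, and contains no mouse with ovaries.

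MPA is a synthetic progestin used in contraception and in hormone therapy after the menopause. It binds the progesterone receptor and also other steroid receptors, among them the glucocorticoid receptor, which are transcription factors that move to the nucleus with their ligand and act on response elements near target genes. The aortic wall is built of endothelium, layers of smooth muscle between elastic sheets, and an outer coat of fibroblasts with surrounding fat and nerves. In ApoE-deficient mice, lipid-laden macrophages gather in the inner layer. Blood left in the vessel adds the transcripts of red cells, platelets and white cells.

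Every value below is a log2 level relative to the 75th percentile of the spots on the same array, so that a difference of 1 is a doubling and a level below 0 is a signal under that percentile. Differences are MPA minus placebo ± standard error (n = 4 and 4 arrays, or fewer where stated), and adjusted p-values come from limma over all 22292 probes. In whole tissue, fewer cells of a type and less RNA per cell cannot be told apart.

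The second MPA array stood apart in brightness. Its 75th percentile of signal was 164.7, against 514.6 to 992.4 on the other 7 arrays, and 46.3% of its spots were well above background, against 51.5% to 60.6%. Its correlation with the other arrays of its group took the within-group range from 0.967 to 0.986 without it down to 0.948 with it; placebo arrays correlated at 0.960 to 0.976 with each other. Values without that array are given beside several of the results below. Each slide held 2 arrays of either group, MPA at positions 1 and 2 and placebo at positions 3 and 4, so position and treatment cannot be told apart. The negative control spots read 106.8 to 116.7 on MPA arrays and 119.0 to 123.9 on placebo arrays, without overlap. Smooth muscle, the defining cell of the tissue, had all 6 of its markers well above background on all 8 arrays, and the differences of these markers ran from -0.51 to 0.32. Acta2, smooth muscle actin, read 8.69, 9.45, 8.46 and 8.54 under MPA and 8.92, 8.84, 8.70 and 8.59 under placebo, a difference of 0.02 ± 0.23 whose sign turned without the second MPA array (-0.20) and with background correction (-0.33), quantile normalization (-0.0025) and the deposited series table (-0.029). The brown fat transcripts Ucp1 and Cidea were also well above background on all 8 arrays. Apoe itself differed by 0.17 ± 0.22; its probe gave signal above background in both groups, which share the deletion, and since the labels do not say whether it lies in the deleted part it checks no label.

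No probe passed an adjusted p of 0.05 by limma (0 of 22292, 0%). The lowest adjusted p was 0.215, and 1534 probes (6.88%) had an unadjusted p under 0.05, 1002 higher under MPA (4.49%) and 532 lower (2.39%). The interval of a typical probe's difference, not adjusted for the number of probes, reached 0.486 to either side at 95% confidence. Differences much smaller than that were not detectable with 4 arrays a group. Far larger ones, such as 2.69 for S100a8 (adjusted p = 0.679 by limma), did not pass the adjusted threshold either. The groups did not overlap for 881 probes (3.95%), 612 with every MPA array above every placebo array (2.75%) and 269 with every MPA array below (1.21%). With 1 probe per gene, the groups did not overlap for 439 genes of 13380 (3.28%), 274 higher (2.05%) and 165 lower (1.23%), and 785 genes (5.87%) had an unadjusted p under 0.05, 437 higher (3.27%) and 348 lower (2.6%). Over all genes the median difference was -0.0065, with 48.8% of genes higher under MPA and 51.2% lower; of the probes, 53.2% were higher and 46.8% lower. With the slide as a block, 1 probe (0.00449%) and thus 1 gene (0.00747%) passed, S100a8.

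Transcripts of neutrophils gave the largest differences in the higher direction among genes whose groups did not overlap. S100a8 and S100a9 encode the subunits of calprotectin, the most abundant protein of the neutrophil cytosol. S100a8 (probe at mm9 chr3:90473778-90473837) read 1.00, 0.45, 2.74 and 2.32 under MPA and -1.97, -2.41, 0.25 and -0.13 under placebo, a difference of 2.69 ± 0.70 (adjusted p = 0.679). Its partner S100a9 (chr3:90496585-90496644) read 5.61, 5.01, 6.79 and 6.19 under MPA and 2.87, 2.16, 4.13 and 4.19 under placebo, a difference of 2.56 ± 0.52 (adjusted p = 0.661). For both genes the groups did not overlap, and within either group the arrays of slide 2 lay above those of slide 1. The difference was of like size on each slide, 2.91 and 2.47 for S100a8 and 2.79 and 2.33 for S100a9. Without the second MPA array it was 3.08 and 2.86. With the slide as a block, limma's adjusted p for S100a8 was 0.0311, the only value of it under 0.05; over the settings tried it ran from there to 0.996.

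Other granule and cytosol genes of neutrophils lay on the same side. Retnlg, a resistin-like protein (chr16:48874468-48874527), read -0.58, -0.50, 0.74 and 0.03 under MPA and -3.00, -3.51, -1.03 and -1.64 under placebo, a difference of 2.22 ± 0.54. Pglyrp1, a peptidoglycan-binding granule protein, read -0.62, -0.94, -1.03 and -0.09 against -2.78, -2.73, -1.12 and -1.58, a difference of 1.38 ± 0.40. The groups of both genes did not overlap, though for Pglyrp1 the third MPA array and the third placebo array lay only a small step apart. Stfa2l1, a stefin of myeloid cells, differed by 2.59 ± 0.71, with its probe well above background on 3 MPA arrays and 2 placebo arrays. Chil3, a secreted chitinase-like protein, read 0.35, 0.56, 2.15 and 0.85 against -0.97, -2.20, -0.13 and 0.69, a difference of 1.63 ± 0.61 with overlap. Lcn2 went the other way, at -0.51 ± 0.44. Of the 21 genes of the neutrophil granule and calprotectin list, 20 were on the array and 10 were tested, of which 8 were higher and 2 lower, 6 of them higher with an unadjusted p under 0.05, against 3.27% of all genes. Their differences ran from -0.71 to 2.69, with a median of 1.51, against -0.0065 over all genes, and 1.62 without the second MPA array. The list level, which is the median over its genes of each array's deviation from the gene's mean, was 0.24 to 1.96 on MPA arrays and -1.84 to 0.03 on placebo arrays. Genes that are dim in placebo can pass the detection filter through the MPA arrays alone, so the counts of tested members describe those members and not the whole list.

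Surface and signalling genes of neutrophils split between the slides. Padi4, the enzyme that citrullinates histones, read -2.42, -2.12, -2.32 and -2.21 under MPA and -3.60, -3.80, -2.54 and -2.56 under placebo, a difference of 0.86 ± 0.30 without overlap. Its probe was dim and not well above background on every array. The chemokine receptor Cxcr2 differed by 1.60 ± 0.66 and the growth factor receptor Csf3r by 1.40 ± 0.61, both with overlap, and Cxcr2 was well above background on all 4 MPA arrays and 1 placebo array. Over the 10 tested members of the 18 in the list, 7 were higher and 3 lower, with a median of 0.80 that was 1.74 on slide 1 and 0.05 on slide 2, and 0.48 without the second placebo array. On slide 2 the placebo arrays stood at 0.17 and 0.61 for this list and the MPA arrays at 0.42 and 0.59, so the groups overlapped there.

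**Figure D1:**
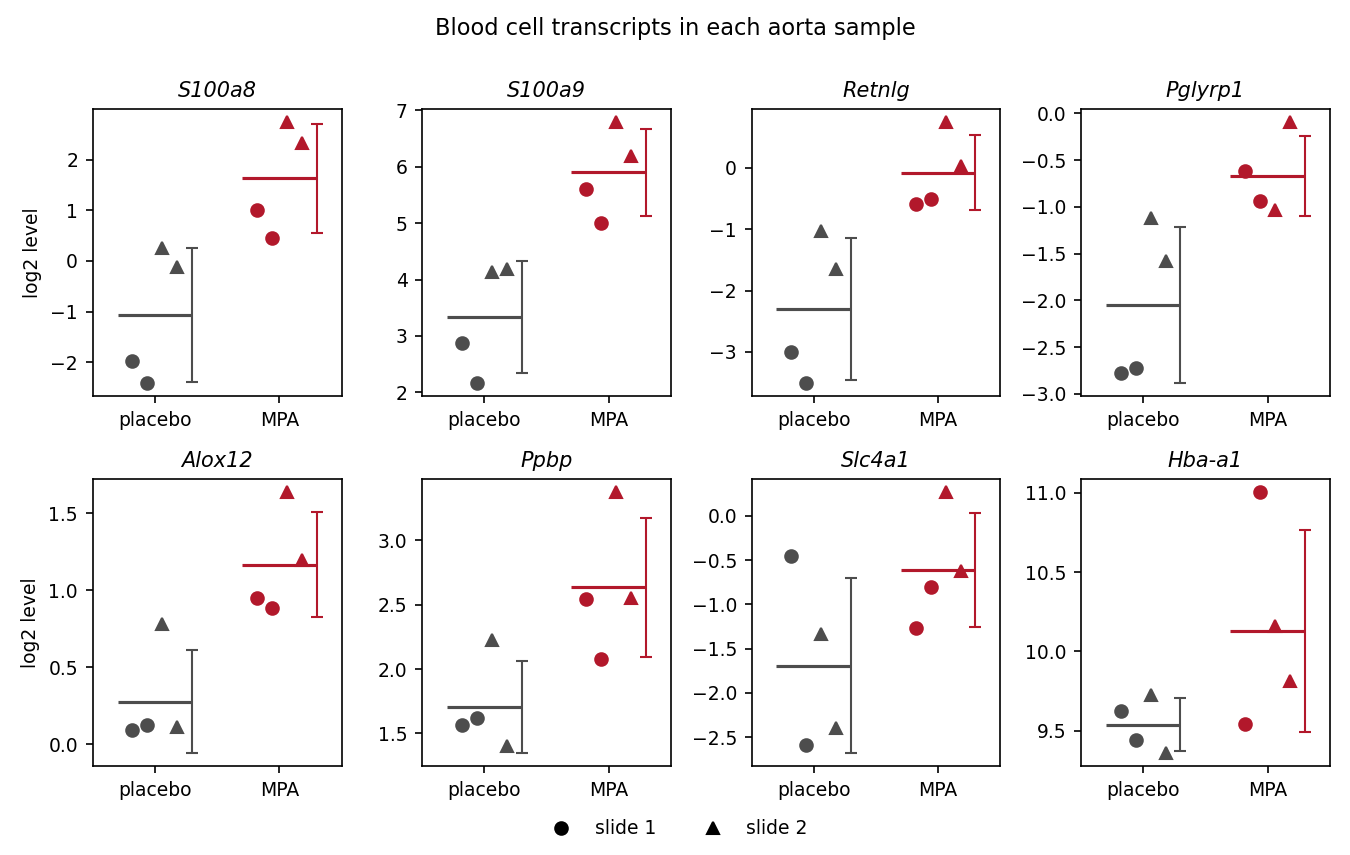
Log2 level of blood cell transcripts on each array, relative to the array's 75th percentile; points are arrays, circles slide 1 and triangles slide 2, horizontal lines are group means and bars the SD of 4 arrays. S100a8 lies between 0.45 and 2.74 under MPA and between -2.41 and 0.25 under placebo, and the arrays of slide 2 are the higher ones in both groups.

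Platelet transcripts were shifted the same way by a smaller step. Alox12, the lipoxygenase of platelets, read 0.95, 0.88, 1.63 and 1.19 under MPA and 0.09, 0.12, 0.78 and 0.11 under placebo, a difference of 0.89 ± 0.23 (adjusted p = 0.661). A further Alox12 probe gave 1.45 ± 0.63, also without overlap. It was well above background on 4 MPA arrays and 2 placebo arrays, and read lowest on the second placebo array, at -6.01. Nrgn, a calmodulin-binding protein that platelets share with neurons, read 1.86, 2.01, 3.19 and 2.03 against 1.05, 1.23, 1.53 and 1.29, a difference of 1.00 ± 0.29. Both genes had every MPA array above every placebo array, with the third of each group highest. Ppbp, the precursor of platelet basic protein, read 2.54, 2.07, 3.37 and 2.55 against 1.57, 1.62, 2.22 and 1.40, a difference of 0.93 ± 0.29, with the second MPA array under the third placebo array. Treml1, a receptor stored in platelet granules, read 0.08, 0.59, 1.92 and 0.49 against -0.54, -0.08, 0.03 and -0.16, a difference of 0.96 ± 0.36 without overlap. The von Willebrand factor receptor subunit Gp9 differed by 0.89 ± 0.34, the collagen receptor Gp6 by 0.92 ± 0.35, the podoplanin receptor Clec1b by 0.89 ± 0.35 and the megakaryocyte factor Nfe2 by 0.96 ± 0.28, each with some overlap. Pf4, platelet factor 4, is a defining platelet transcript and read 5.62, 5.14, 6.05 and 5.29 against 5.25, 5.69, 5.11 and 5.28, a difference of 0.19 ± 0.23 that overlapped, was 0.32 without the second MPA array and turned to -0.18 with normexp background correction.

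Of 13 tested genes of the platelet surface 11 were higher, with a median of 0.45, or 0.72 without the second MPA array, and 5 were higher with an unadjusted p under 0.05, against 3.27% of all genes. Among the 13 tested genes of platelet contents and megakaryocyte regulators 10 were higher, 4 of them with an unadjusted p under 0.05, and the median was 0.26, or 0.39 without the second MPA array and 0.14 without the third. The surface list ran from -0.12 to 0.98 on MPA arrays and from -0.60 to -0.08 on placebo arrays, with the second MPA array just inside the placebo range.

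Red cell transcripts leaned the same way without separating the groups. The anion exchanger Slc4a1 read -1.27, -0.80, 0.27 and -0.62 under MPA and -0.45, -2.58, -1.33 and -2.40 under placebo, a difference of 1.08 ± 0.49, and the haemoglobin chaperone Ahsp differed by 1.07 ± 0.54. Hba-a1, alpha globin, read 9.54, 11.00, 10.16 and 9.81 against 9.63, 9.44, 9.72 and 9.36, a difference of 0.59 ± 0.29, and 0.30 without the second MPA array, which was the highest. Of 14 tested erythroid genes 13 were higher, with a median of 0.59, 1 of them was higher with an unadjusted p under 0.05, against 3.27% of all genes, and none had groups that did not overlap. On the first array of each group the order was turned, -0.17 under MPA against 0.59 under placebo. The lymphocyte lists differed between the slides. T cell genes had a median of 0.76 on slide 1 and -0.82 on slide 2, with the first MPA array highest at 1.08, and their median over both slides was 0.0032. Of 12 tested B cell and plasma cell genes 8 were higher, with a median of 0.34 that was 0.80 on slide 1 and -0.14 on slide 2, and 0.085 without the first MPA array. How far blood left in the vessel moved with these lists was not tested.

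**Figure D2:**
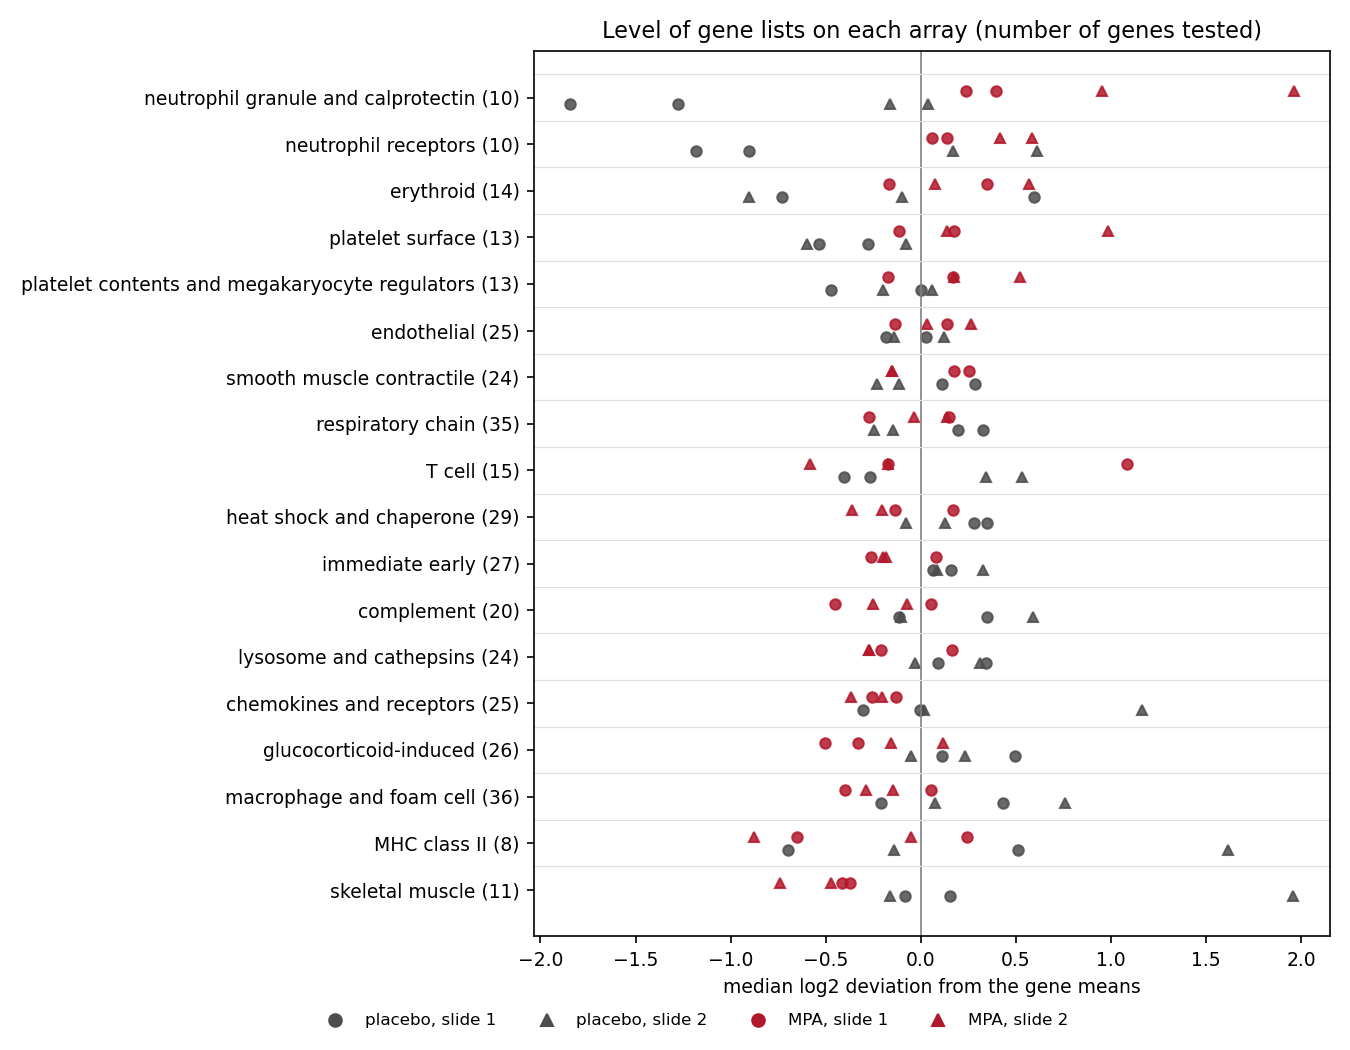
Level of 18 gene lists on each array, as the median over the tested genes of the log2 deviation from each gene's mean over 8 arrays; the number of genes is in parentheses, red is MPA, grey placebo, circles slide 1 and triangles slide 2. The neutrophil granule list and the skeletal muscle list are those shown whose groups do not overlap, the latter with the third placebo array at 1.95.

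Macrophage transcripts lay lower under MPA. Fabp5, a fatty acid carrier of foam cells, read -1.79, -1.54, -1.87 and -1.62 under MPA and -1.29, -0.60, -0.69 and 0.09 under placebo, a difference of -1.08 ± 0.27. Mmp12, the macrophage elastase, read 0.10, -0.62, -0.49 and 0.15 against 0.22, 1.17, 1.07 and 0.47, a difference of -0.95 ± 0.27. The scavenger receptor Msr1 read -0.52, 0.00, -0.42 and -0.80 against 0.11, 0.18, 0.29 and 0.70, a difference of -0.75 ± 0.21. Acp5, an acid phosphatase of macrophages and osteoclasts, read 1.72, 1.62, 1.92 and 1.83 against 2.28, 2.37, 2.26 and 2.25, a difference of -0.52 ± 0.14. In all 4 genes every MPA array lay below every placebo array, for Mmp12 by a narrow margin between the fourth MPA and the first placebo array. The defining markers Cd68 (-0.56 ± 0.23), Csf1r (-0.53 ± 0.26) and Adgre1 (-0.46 ± 0.29) overlapped between the groups.

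Over 36 tested macrophage genes 34 were lower and 2 higher, with 13 lower at an unadjusted p under 0.05, against 2.6% of all genes lower at that p. Their median was -0.54, -0.45 without the second MPA array, -0.37 on slide 1 and -0.75 on slide 2. The list level overlapped, from -0.40 to 0.06 on MPA arrays and from -0.21 to 0.76 on placebo arrays, with the first placebo array inside the MPA range and the fourth far above it. Lysosomal genes followed with 21 of 24 lower and a median of -0.35, or -0.24 without the second MPA array. Psap, the precursor of the saposins that activate lysosomal lipid hydrolases, read 5.46, 4.84, 5.06 and 4.85 against 5.87, 5.71, 5.50 and 6.17, a difference of -0.76 ± 0.20, and the collagenase Ctsk differed by -0.63 ± 0.21. Among sterol efflux genes and apolipoproteins 14 of 20 were lower, with a median of -0.15. Apoc1, which lies in the gene cluster of Apoe, read 3.13, 3.58, 3.75 and 3.28 against 4.55, 4.00, 4.65 and 4.17, a difference of -0.91 ± 0.21. The sterol transporter Abcg1 gave -0.84 ± 0.31, with overlap. Apoc4, of the same cluster as Apoc1, gave -1.24 ± 0.28, was well above background on 2 MPA arrays and turned to 0.23 with normexp background correction.

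Genes of antigen presentation and of chemotaxis hung on the fourth placebo array. The class II genes H2-Aa (-0.86 ± 0.49), H2-Ab1 (-0.82 ± 0.53), H2-Eb1 (-0.81 ± 0.47) and their chaperone Cd74 (-0.67 ± 0.58) were all highest there, at 3.18, 6.43, 2.69 and 4.63. All 8 tested class II genes were lower under MPA, none with an unadjusted p under 0.05, and their median of -0.65 became -0.15 without that placebo array. It was -0.07 on slide 1 and -1.20 on slide 2. Chemokines and their receptors were lower in 24 of 25 tested genes, 3 with an unadjusted p under 0.05 against 2.6% of all genes, with a median of -0.45 that became -0.11 without the fourth placebo array. Cxcr4, the receptor of Cxcl12, read -1.36, -1.78, -1.81 and -1.34 under MPA and -1.76, -0.43, -0.26 and -0.21 under placebo, a difference of -0.91 ± 0.34, and Cxcl16, a chemokine of macrophages, gave -0.68 ± 0.25. Cxcl1, a chemokine that attracts neutrophils, gave -1.07 ± 0.48, -0.10 on slide 1 and -2.04 on slide 2, while the neutrophil transcripts above lay higher under MPA.

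Il6 gave the largest difference in the lower direction of any gene whose groups did not overlap. The interleukin-6 probe (chr5:30346362-30346421) read -2.68, -0.83, -1.51 and -4.56 under MPA and -0.02, -0.43, 0.42 and 2.74 under placebo, a difference of -3.07 ± 0.88 (adjusted p = 0.694). The fourth array of each group set much of its size, with -1.53 on slide 1 and -4.61 on slide 2, and the probe was well above background on 3 of the 4 MPA arrays. Without the second MPA array the difference was -3.60. Il18bp, the secreted inhibitor of interleukin-18, read 0.81, 1.62, 0.82 and 1.37 against 1.67, 2.15, 2.43 and 2.82, a difference of -1.11 ± 0.28, and its other probe gave -1.02 ± 0.27, with overlap. Of 18 tested cytokines and receptors 16 were lower, with a median of -0.27, or -0.17 without the second MPA array and -0.095 without the fourth placebo array.

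Complement genes were lower in 19 of 20 tested members, with a median of -0.35, or -0.21 without the second MPA array and -0.19 without the fourth placebo array. Cfi, the protease that cleaves C3b, read -0.95, -0.75, -1.30 and -1.49 against -0.27, -0.48, 0.28 and -0.24, a difference of -0.94 ± 0.22. C3ar1, the receptor of the C3a fragment, gave -0.79 ± 0.25, its groups touching at -0.95 on the first MPA array and -0.94 on the first placebo array. C1qb, a chain of C1q made by macrophages, gave -0.69 ± 0.23 with overlap. Interferon-stimulated genes showed no shift as a list, with 14 of 27 higher and a median of 0.0032, but the RNA sensor Ddx58 (0.46 ± 0.16) and Ifit2 (0.77 ± 0.26) had groups that did not overlap; further Ddx58 probes gave 0.43 and 0.0023.

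Glucocorticoid-induced genes, whose receptor MPA can bind, mostly lay lower under MPA. Sgk1, a kinase that glucocorticoids and mineralocorticoids induce, read 4.62, 4.27, 5.07 and 4.74 under MPA and 5.33, 5.79, 5.30 and 5.66 under placebo, a difference of -0.84 ± 0.21 (adjusted p = 0.661) that was -0.70 without the second MPA array. Tsc22d3, which encodes the leucine zipper protein GILZ (chrX:137074393-137074452), read 3.99, 2.72, 4.00 and 3.74 against 4.91, 5.90, 4.12 and 4.17, a difference of -1.16 ± 0.43. Its other probes gave -1.01 and -1.30, and in all 3 probes the groups did not overlap. On slide 1 the Tsc22d3 difference was -2.05 and on slide 2 -0.27, since the second placebo array was highest and the second MPA array lowest. Fkbp5, a co-chaperone of the receptor, gave -0.89 ± 0.38, -1.61 on slide 1 and -0.17 on slide 2. The transcription factor Cebpb (-0.82 ± 0.25), the feedback inhibitor of receptor tyrosine kinases Errfi1 (-0.73 ± 0.24), the phosphatase Dusp1 (-0.71 ± 0.24, with 3 MPA values), the metallothionein Mt2 (-0.77 ± 0.27, with 3 MPA values) and the kinase Map3k6 (-0.68 ± 0.24) lay on the same side, with overlap in some. Of 26 tested genes 24 were lower, 9 with an unadjusted p under 0.05 against 2.6% of all genes, and the median was -0.47. That median was -0.39 without the second MPA array, -0.72 on slide 1 and -0.20 on slide 2. The list level was -0.50 to 0.12 on MPA arrays and -0.05 to 0.50 on placebo arrays, the third MPA array lying inside the placebo range.

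The promoters of these genes were searched for the palindrome that the glucocorticoid, mineralocorticoid and progesterone receptors share, in the RefSeq sequence of build GRCm38.p6 from 250 bases before to 50 after each start. The letters searched were the half-sites GNACA and TGTNC with 3 bases of any kind between them, which read the same on both strands. They stood in 156 of 32851 promoters (0.475%) of all genes. For the list, 23 of the 26 tested genes were matched, with 34 promoters, and 3 of these (8.82%) held the letters, those of Sgk1, Map3k6 and Mt1. The motif was chosen with the differences known, so its share is a description. The Sgk1 and Map3k6 promoters are shown because they carry the motif and belong to genes with lower values under MPA; the match is in capitals. For Sgk1, 1 of its 6 starts held it (chr10:21993640-21993939, plus strand), and for Map3k6 its single start did (chr4:133240568-133240867, plus strand).
Sgk1: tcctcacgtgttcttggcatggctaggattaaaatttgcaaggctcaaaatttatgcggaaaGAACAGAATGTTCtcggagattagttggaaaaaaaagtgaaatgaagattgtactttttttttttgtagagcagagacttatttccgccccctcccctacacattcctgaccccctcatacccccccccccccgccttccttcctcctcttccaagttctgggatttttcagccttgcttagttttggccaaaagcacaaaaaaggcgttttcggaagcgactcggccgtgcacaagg
Map3k6: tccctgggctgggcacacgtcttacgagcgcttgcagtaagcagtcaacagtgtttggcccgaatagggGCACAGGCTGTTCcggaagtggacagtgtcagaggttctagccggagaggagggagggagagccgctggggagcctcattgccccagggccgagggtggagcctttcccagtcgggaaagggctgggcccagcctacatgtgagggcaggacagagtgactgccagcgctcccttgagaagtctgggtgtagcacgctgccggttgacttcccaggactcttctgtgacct
Mt1, the third gene with a match, read 4.59, 5.10, 4.98 and 4.40 under MPA and 4.25, 4.94, 4.72 and 6.29 under placebo. Its difference was -0.28 ± 0.40, and 0.13 without the fourth placebo array.

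The steroid receptors themselves are transcription factors whose own level sets how a cell can answer a ligand. Nr3c2, the mineralocorticoid receptor (chr8:79432389-79432448), read -3.31, -1.53, -2.32 and -2.31 under MPA and -3.37, -3.95, -3.39 and -3.37 under placebo, a difference of 1.16 ± 0.34 (adjusted p = 0.694) and 0.88 without the second MPA array, the highest. Its groups did not overlap, the first MPA array lying just above the placebo arrays, and its probe was well above background on all 4 MPA arrays and 2 placebo arrays. Pgr, the progesterone receptor, read -2.87, -1.46, -2.75 and -2.30 against -1.94, -2.67, -2.75 and -3.13, a difference of 0.28 ± 0.35, which was -0.015 without the second MPA array. Esr1, the oestrogen receptor alpha, gave 0.41 ± 0.18 and Nr3c1, the glucocorticoid receptor, -0.083 ± 0.21, which turned to 0.044 with quantile normalization and 0.025 in the deposited series table; the groups of both overlapped. Among androgen and progestin target genes, Igf1, a growth factor, read 3.02, 3.05, 3.13 and 3.02 against 3.35, 3.72, 3.39 and 3.76, a difference of -0.50 ± 0.15 without overlap. Its other probes gave -0.39 and -0.41. The cyclin Ccnd1 gave -0.65 ± 0.21. Of 13 tested genes of that list 5 were higher and 8 lower, with a median of -0.06.

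Heat shock genes encode chaperones that fold other proteins, and immediate early genes are transcribed within minutes of a stimulus. Hspa1a, the inducible chaperone HSP70, read 3.51, 3.77, 3.33 and 3.23 under MPA and 4.68, 4.61, 4.09 and 4.29 under placebo, a difference of -0.96 ± 0.19 (adjusted p = 0.661) that was close on both slides (-1.01 and -0.91). Its other probe, which shares bases with the first, gave -1.21, also without overlap, and the closely alike gene Hspa1b could share signal with both. Its partner Dnaja1 read 1.46, 1.25, 1.13 and 0.80 against 2.33, 2.50, 1.51 and 1.71, a difference of -0.86 ± 0.25. Hsph1, a nucleotide exchange factor for HSP70, gave -0.72 ± 0.27, Chordc1, a co-chaperone of HSP90, -0.60 ± 0.28, and Cct3, a chaperonin subunit, -0.47 ± 0.16. Of 29 tested chaperone genes 26 were lower, 7 with an unadjusted p under 0.05 against 2.6% of all genes, with a median of -0.22, or -0.30 without the second MPA array. Their level overlapped, -0.36 to 0.17 on MPA arrays and -0.08 to 0.35 on placebo arrays.

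The promoters of the chaperone genes were searched in the same way for the heat shock element, as the units GAA, TTC and GAA with 2 bases of any kind between neighbours, or the reverse complement TTC, GAA and TTC. These letters stood in 198 of all 32851 promoters (0.603%). The motif was chosen for a list of heat shock genes, so the share in that list is a description. For the list, 22 of 29 tested genes were matched, with 29 promoters, and 5 of these (17.2%), of 4 genes, held them, Hsph1, Chordc1, Hspd1 and Hspe1; the last pair face each other across 1 shared region. Hsph1 (chr5:149636287-149636586, minus strand; both of its 2 starts hold the motif) and Chordc1 (chr9:18292017-18292316, plus strand; 3 overlapping matches) are printed because their values lay lower under MPA, with matches in capitals.
Hsph1: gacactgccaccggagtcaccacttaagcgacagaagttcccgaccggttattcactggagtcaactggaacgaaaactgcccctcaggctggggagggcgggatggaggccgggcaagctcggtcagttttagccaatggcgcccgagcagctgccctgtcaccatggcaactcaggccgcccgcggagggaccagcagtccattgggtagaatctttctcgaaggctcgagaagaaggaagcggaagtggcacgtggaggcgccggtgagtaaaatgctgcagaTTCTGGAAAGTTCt
Chordc1: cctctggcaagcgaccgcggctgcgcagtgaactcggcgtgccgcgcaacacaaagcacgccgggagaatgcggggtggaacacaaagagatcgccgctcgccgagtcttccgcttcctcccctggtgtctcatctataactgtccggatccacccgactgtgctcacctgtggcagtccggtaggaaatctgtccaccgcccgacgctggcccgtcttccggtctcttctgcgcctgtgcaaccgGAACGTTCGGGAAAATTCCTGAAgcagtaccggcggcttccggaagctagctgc
Both genes had overlapping groups, with Hsph1 at 5.07, 3.98, 4.51 and 4.05 under MPA and 5.21, 5.48, 4.68 and 5.11 under placebo. Hspd1 and Hspe1, the mitochondrial chaperonin pair, carry the motif too and gave -0.16 ± 0.21 and -0.09 ± 0.35. Hspa1a and Dnaja1 were not among the genes with a match. Only 22 of the 29 tested genes had promoters to search, and only these exact letters were sought. The lack of a match therefore does not show that a gene lacks the element.

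Immediate early genes lay lower in 24 of 27 tested members, 6 with an unadjusted p under 0.05 against 2.6% of all genes, with a median of -0.27, or -0.34 without the second MPA array and -0.42 without the third placebo array. Atf3, a stress-induced repressor, read 0.77, 0.71, 0.41 and 0.37 under MPA and 1.57, 1.70, 1.24 and 1.51 under placebo, a difference of -0.94 ± 0.17 (adjusted p = 0.661), and ran from -1.05 to -0.88 over 23 settings. Nr4a1, an orphan nuclear receptor, read 3.13, 3.56, 2.34 and 2.83 against 4.13, 3.99, 3.70 and 4.00, a difference of -0.99 ± 0.25. Jun, a subunit of AP-1, read -0.89, -0.73, -0.68 and -0.77 against -0.53, -0.24, -0.49 and -0.24, a difference of -0.40 ± 0.14. In these 3 genes every MPA array lay below every placebo array. Rgs1, a regulator of G protein signals in leukocytes, gave -0.77 ± 0.27 with overlap.

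**Figure D3:**
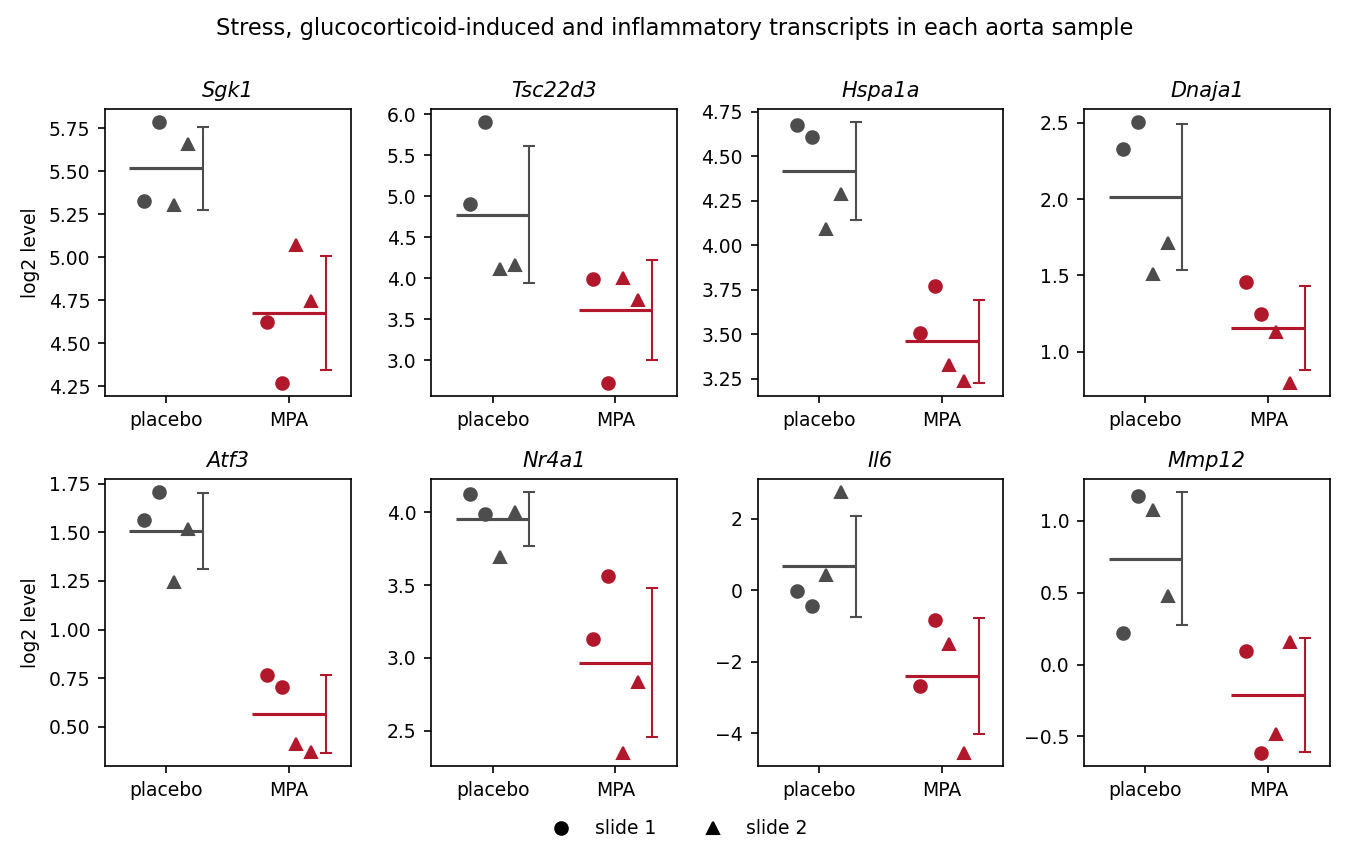
Log2 level of 8 transcripts on each array, relative to the array's 75th percentile; points are arrays, circles slide 1 and triangles slide 2, horizontal lines are group means and bars the SD of 4 arrays. In each panel every MPA array lies below every placebo array, and Tsc22d3 and Dnaja1 show placebo arrays of slide 1 well above those of slide 2.

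Genes of the vessel wall gave few separated groups. Gucy1a1, the alpha subunit of the nitric oxide receptor of smooth muscle, read 3.54, 3.72, 4.03 and 3.41 under MPA and 2.67, 2.95, 2.76 and 2.53 under placebo, a difference of 0.95 ± 0.18 (adjusted p = 0.661). Another probe, beside it and without shared bases (chr3:81898619-81898678), gave 1.35 ± 0.17 with an adjusted p of 0.215, the lowest of any probe. The last tested probe of the gene gave -0.27 ± 0.35 (3 MPA values), so its probes disagreed. Lox, the enzyme that cross-links elastin and collagen, read 0.55, 0.74, 0.60 and 0.32 against 1.24, 1.23, 0.91 and 1.30, a difference of -0.62 ± 0.16. Of 19 tested genes of elastic fibres 14 were lower, with a median of -0.22 that became -0.035 without the fourth placebo array, and of 24 collagens 16 were lower, with a median of -0.18. Hyal1, a hyaluronidase, read 1.22, 1.41, 1.61 and 1.56 against 0.57, 0.93, 0.62 and -0.06, a difference of 0.94 ± 0.22, and its other probe, which shares bases with the first, gave 0.62, also without overlap. Bmper, an inhibitor of bone morphogenetic proteins, gave -0.92 ± 0.27 and -1.06 ± 0.25 on its 2 probes, neither with overlap, and the receptor Tgfbr1 gave -0.61 ± 0.24.

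The smooth muscle contractile list had 14 of 24 genes higher and a median of 0.05, which turned to -0.30 with normexp background correction and -0.032 without the second MPA array. Myh11, smooth muscle myosin, gave 0.015 ± 0.26, which those settings turned to -0.40 and -0.11, and Smtn, smoothelin, read 1.84, 1.61, 1.46 and 1.53 against 1.40, 1.20, 1.21 and 1.33, a difference of 0.32 ± 0.15 without overlap. Endothelial genes were higher in 17 of 25, with a median of 0.10; Egfl7, which endothelium secretes, gave 0.44 ± 0.17.

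Genes of clotting were mostly lower. Tfpi, the inhibitor of the tissue factor pathway, gave -0.66 ± 0.22, which normexp background correction turned to 0.043. Ptgs2, the inducible cyclooxygenase, is not a clotting gene and gave -0.64 ± 0.20, turned to 0.23 by that correction. It belongs to the prostanoid and leukotriene list, where 9 tested genes were higher and 11 lower, with a median of -0.04. Hmox1, haem oxygenase 1, of the oxidative stress list, read -0.98, 1.59, -0.07 and 0.78 under MPA and 1.59, 1.90, 1.32 and 2.60 under placebo, a difference of -1.52 ± 0.51 with overlap and the first MPA array lowest. In that list 10 tested genes were higher and 16 lower, with a median of -0.06. Of 25 tested coagulation and fibrinolysis genes 20 were lower, with a median of -0.26, or -0.41 without the third placebo array. The list level did not overlap, at -0.25 to -0.14 on MPA arrays and -0.06 to 0.24 on placebo arrays. Of 54 lists, 4 had such levels with MPA lower and 1 with MPA higher. The skeletal muscle, androgen and progestin target and unfolded protein response lists were the others with MPA lower. Part of that list encodes plasma proteins made mainly by the liver. Serpind1, heparin cofactor II, read -2.41, -3.37, -2.92 and -3.16 against -0.92, -2.24, -0.72 and -2.72, a difference of -1.32 ± 0.45 that turned to 0.069 with normexp background correction, and F2, prothrombin, read -0.91, -0.32, -0.55 and -1.41 against 0.95, -0.35, 1.21 and -0.84, a difference of -1.04 ± 0.46.

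The same order of arrays returned in other transcripts known mainly from liver, grouped here after their values were seen. Ahsg, fetuin A, read 2.83, 2.93, 2.84 and 2.34 under MPA and 3.90, 3.49, 4.32 and 3.29 under placebo, a difference of -1.02 ± 0.25. Hc, complement C5, read -1.86, -1.54, -1.87 and -2.49 against -0.18, -1.42, 0.16 and -2.16, a difference of -1.04 ± 0.48. Cyp2c40, a cytochrome P450, read -1.98, -2.49, -1.92 and -2.10 against -0.63, -1.39, 0.34 and -1.87, a difference of -1.24 ± 0.42. In all of these the third placebo array was highest and the first placebo array next, with the MPA arrays closer together. Cyp2d10 (-1.26 ± 0.48), Vtn (-0.77 ± 0.34), Azgp1 (-0.97 ± 0.45) and Agt (-1.26 ± 0.31), which encodes angiotensinogen, were also highest on the first and the third placebo array. Cyp2d10 and Agt turned to 0.05 and 0.067 with normexp background correction. The probes of Cyp2c40, Cyp2d10 and Agt were each well above background on 3 MPA arrays and 4 placebo arrays. Whether tissue outside the aorta contributed was not tested.

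Skeletal muscle transcripts, which mark neighbouring muscle, were lower in all 11 tested genes of 20, with a median of -0.82. A single placebo array carried most of it. Myh2, a fast myosin, read -3.82, -4.58, -4.46 and -4.21 under MPA and -2.71, 0.06, 3.43 and -4.69 under placebo, and the troponin Tnnc2 read -3.10, -2.09, -2.39 and -2.21 against -2.23, 0.0049, 4.29 and -2.13. Without the third placebo array the median of the list was -0.30. Acta1, skeletal actin, gave -0.63 ± 0.21 without overlap. Gpm6b, a membrane protein of glia, read -1.32, -1.58, -0.89 and -1.39 against -0.61, 0.03, -0.27 and -0.16, a difference of -1.05 ± 0.20, and 12 of 14 tested Schwann cell and neuron genes were lower, with a median of -0.42, or -0.24 without the third placebo array. Cd38, an ectoenzyme that plasma cells and other leukocytes carry, gave -0.78 ± 0.17 without overlap.

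**Figure D4:**
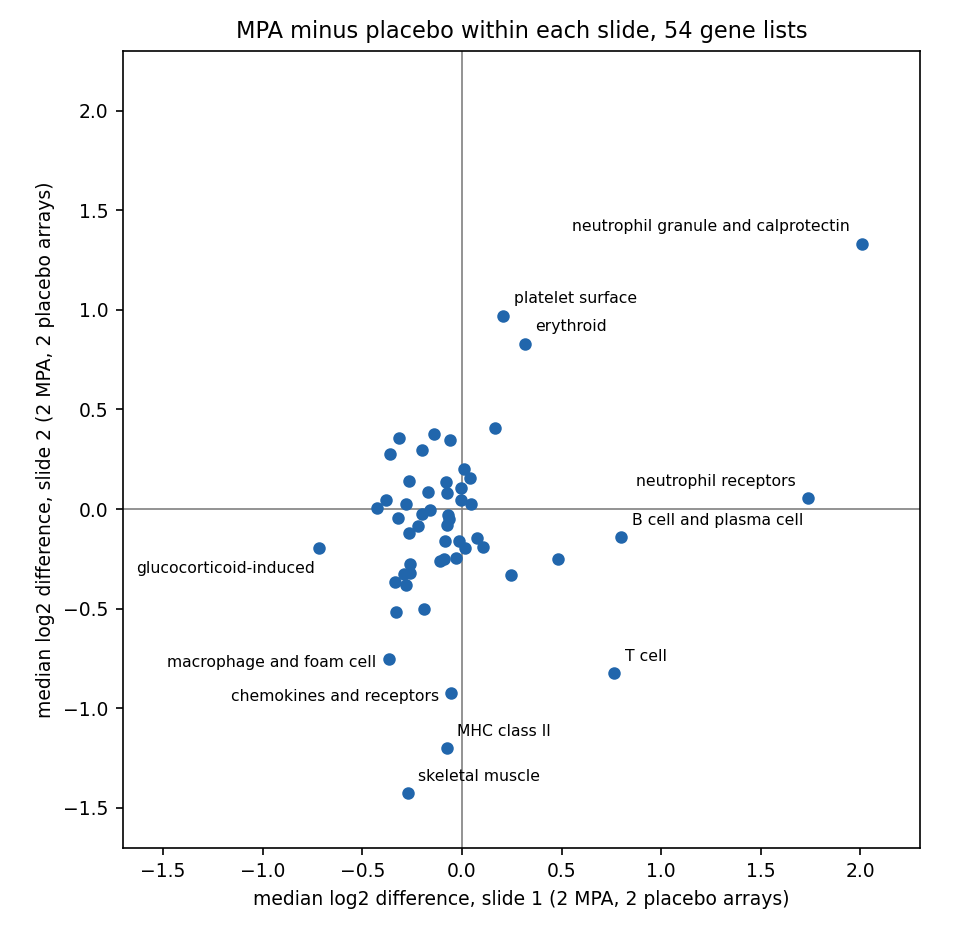
Median log2 difference, MPA minus placebo, of 54 gene lists on slide 1 (horizontal axis) and on slide 2 (vertical axis), each from 2 MPA and 2 placebo arrays; each point is a list. The neutrophil granule list lies at 2.01 and 1.33, while the T cell list lies at 0.76 and -0.82 and 21 lists have opposite signs on the slides.

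The slides repeated some lists and not others. Of 54 lists, 21 had medians of opposite sign on slide 1 and slide 2, and over all probes 52.6% had the same sign on both. In 23 lists the median kept its sign in every one of 21 other settings, 5 higher and 18 lower. The 5 were the neutrophil granule, neutrophil receptor, platelet surface, platelet contents and erythroid lists. The 18 included the macrophage, lysosome, glucocorticoid-induced, heat shock, immediate early, complement, chemokine and coagulation lists. Those settings share arrays with each other, so they are not independent repeats.

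Several of the other genes with large differences and no overlap had dim probes. Trim30b, a tripartite motif protein, read -2.57, -2.37, -2.96 and -1.99 under MPA and -4.87, -4.44, -3.73 and -3.24 under placebo, a difference of 1.60 ± 0.36, with its probe well above background on 4 MPA arrays and 1 placebo array. Atp2b2, a calcium pump of the plasma membrane, gave 1.51 ± 0.45, or 1.07 without the second MPA array. Csta1, a stefin, gave 1.16 ± 0.31, and a probe labelled Sfrs3, after a splicing factor, 1.06 ± 0.23. The list of splicing regulators did not use that probe. The 33 tested genes of that list had differences of 0.64 at most and a median of -0.0066. In the lower direction, Chl1, a neural adhesion molecule, gave -1.46 ± 0.46, Depp1, a target of FOXO factors, -1.37 ± 0.42, and Lhfpl2, a membrane protein, -1.28 ± 0.25, which turned to 0.10 with normexp background correction. The Lhfpl2 probe was well above background on 3 MPA arrays and 4 placebo arrays.

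Direction differed with brightness. Probes were divided into 5 equal sets by their mean level over the 8 arrays, and the median difference ran 0.11, 0.075, 0.034, 0.0012 and -0.057 from the dimmest to the brightest. Without the second MPA array, these medians were 0.11, 0.071, 0.031, 0.0076 and -0.018. The groups did not overlap, with MPA higher, for 138, 192, 129, 106 and 47 probes, and with MPA lower for 34, 38, 73, 61 and 63. Detection leaned the same way: 20 of 41174 probes were well above background on all 4 MPA arrays and on no placebo array, and 0 the other way round. Of the 18 named ones, the widest bound was 2.21-fold for 2310030G06Rik, with levels of -2.47 under MPA against a bound of -3.62. Next came Knl1, a kinetochore protein, at 1.77-fold, and Specc1 at 1.74-fold. These are ratios of group means and not confidence limits, and the adjusted p-values by limma were 0.661, 0.694 and 0.694. For Knl1 the placebo bound of -3.42 was almost its measured placebo mean of -3.43. On most of the 20 probes the dim second MPA array read highest, as for Knl1 (-2.06) and Specc1 (-1.95), though not for 2310030G06Rik. Bounds without that array were not computed. In such a bound the MPA mean stands against a placebo floor, which on each array is the dimmest detected probe's level or the probe's own, whichever is larger.

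**Figure D5:**
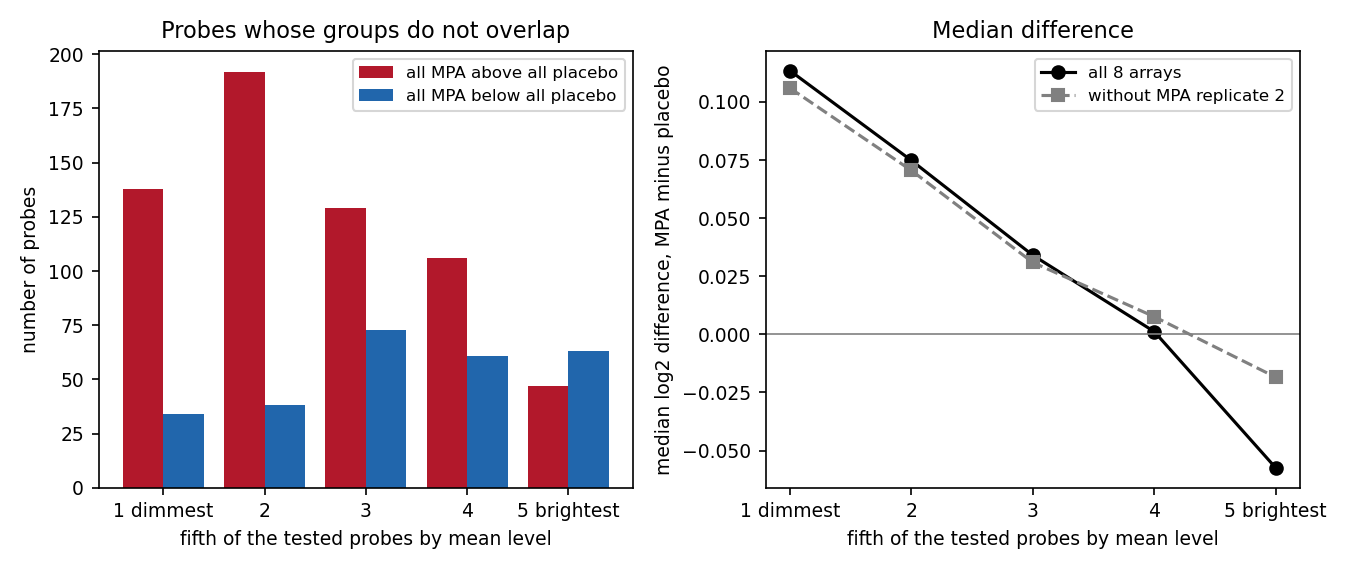
Tested probes in 5 equal sets by mean log2 level, from the dimmest to the brightest: the median log2 difference, MPA minus placebo, with all arrays and without the second MPA array, and the number of probes whose groups do not overlap in either direction. The median falls from 0.11 in the dimmest set to -0.057 in the brightest, where 63 probes are lower and 47 higher.

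Probes of the same gene gave a check that does not rest on new samples. Among 4968 genes with several tested probes, all probes of a gene had the same sign in 2548 (51.3%), and the rest had probes of both signs. In only 31 of these 4968 genes did at least 2 probes have groups that did not overlap, 19 of them higher, 11 lower and 1 with probes on opposite sides. Tsc22d3, Hspa1a, Igf1 and Bmper were among the lower genes, and Alox12, Hyal1, Gucy1a1 and Ddx58 among the higher ones. The probes of Hspa1a share bases, as do those of Hyal1, so they do not check each other. Over all tested probes the groups did not overlap for 3.95%. How many genes would have at least 2 such probes, or probes of 1 sign, by chance was not computed. The probes of a gene read the same RNA on the same arrays, so at most they check the probe and not the sample.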

How the data were processed

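Total RNA of each aorta (100 ng) was labelled with Cy3 and hybridised to a one-colour Agilent array, per the labels' protocols. Agilent Feature Extraction 10.7.1.1, named in the headers, gave each deposited spot intensity and subtracted background and spatial trends, on arrays of 45018 spots annotated on mm9; the deposited intensity was not normalized between arrays. The deposited series table holds log2 values whose scale, centring and making are not given in the sources used here; it was used only as an alternative. A total of 8 columns of that table, of another experiment, were not used.

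Outlier spots were left out (2778 values, 0.801%), no spot was saturated, each array's 75th percentile over non-control spots was subtracted from log2 signal, and spots of a probe were averaged. Probes well above background on at least 4 of 8 arrays, with at least 2 values a group, were tested with limma 3.58.1 in R 4.3.3 (lmFit, eBayes, two-sided, Benjamini-Hochberg). A gene took its probe with the highest mean level. By accession, 26690 probes matched the reference table and 3169 took a newer symbol. The test was checked on simulated data. The number of arrays limits the precision.

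Named genes were the 12 highest and 12 lowest differences among genes whose groups did not overlap, up to 4 members of each of 54 lists by p, steroid receptors, cell type markers and other probes of these; others are marked or belong to a list described. The members and lists were chosen with earlier results of these data known. Alternatives covered background correction, normalization, filters, outlier spots, slide and replicate blocks, array weights, the deposited table, probe choice, and leaving out each array. Replicate numbers were not treated as pairs in the main test. Some genes that the rule names are not reported here.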

Additional observations from a re-analysis of the deposited data

Results flagged for a closer look

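Within a group of 4 arrays, a level was picked out when its gap to the next array exceeded Dixon's critical value at 95% confidence; of 324 groups examined 17 did so, and chance picks out about 1 in 20. Among list levels, lysosome and cathepsin genes stood at 0.17 on the first MPA array against -0.27 to -0.21 on the others, and collagens at 0.14 on that array against -0.13 to -0.09. Skeletal muscle genes stood at 1.95 on the third placebo array against -0.16 to 0.15. Prostanoid and leukotriene genes stood at -0.28 on the first placebo array against 0.12 to 0.16, and lipogenesis genes at -0.40 on the fourth placebo array against 0.08 to 0.10.

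Among genes, the third placebo array was apart for Acta1 at 3.08 (others 2.29 to 2.36), Alox12 at 0.78 (0.09 to 0.12), Gp9 at 0.90 (0.05 to 0.18) and Cebpb at 6.41 (7.21 to 7.25). The first placebo array was apart for Apoe at -0.08 (0.59 to 0.69), Cxcr4 at -1.76 (-0.43 to -0.21) and Lhfpl2 at -2.59 (-1.62 to -1.51). The second placebo array was apart for Nr3c2 at -3.95 (-3.39 to -3.37). Under MPA, the first array was apart for Cxcl16 at 1.60 (0.91 to 0.98), the third for Nrgn at 3.19 (1.86 to 2.03) and Fkbp5 at 0.38 (-0.78 to -0.67), and the fourth for Ahsg at 2.34 (2.83 to 2.93). The dim second MPA array was apart in none of the 324 groups.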

How the results depend on the processing

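No probe passed an adjusted p of 0.05 in any setting but the slide block, where 1 did. With the replicate number as a block, 0 probes passed, the lowest adjusted p by limma was 0.0596 and 1457 probes had an unadjusted p under 0.05. The deviations of same-numbered arrays correlated at 0.222, -0.218, -0.0524 and 0.0514. With 4 arrays a group, these cannot decide whether the numbers pair the samples. The count at an unadjusted p under 0.05 was 1534, and 7280 with normexp background correction, 2455 with array weights and 1008 on slide 1 alone. The share of these higher under MPA was 65.3%, 80.3% with normexp, 55.7% in the deposited series table and 49.4% on slide 1 alone. Normexp moved the median of all probes to 0.123 and left unequal spreads, with an interquartile range of 2.02, 2.14, 2.92 and 1.59 on the MPA arrays and 2.77 to 3.04 on placebo arrays, against 3.36 to 3.54 on all 8 before it. Groups did not overlap for 881 probes, 69.5% of them higher; 2888 with normexp, 439 with 1 probe per gene, 501 with gene means (fewer features tested) and, added after seeing the data, 1638 without the second MPA array, where fewer samples make separation easier by construction. Of such probes, 57.9% were higher in the values deposited for the series.

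Of 1134 list medians under other settings, 1057 moved by less than the spread between arrays. With array weights, renin-angiotensin genes gave -0.063. In the deposited table, coagulation gave -0.39 and circadian genes -0.038. With gene means, elastic fibre genes gave -0.061; with outlier spots kept, coagulation gave -0.42; with detection on all 8 arrays, platelet surface genes gave 0.89 and circadian genes -0.10. Normexp gave platelet surface 0.86, lysosome -0.64, mast cell 0.30, smooth muscle contractile -0.30, fibroblast -0.30, brown adipocyte -0.20, adipocyte -0.30, Schwann cell -0.17, steroid receptors -0.12, steroid metabolism -0.33, androgen and progestin targets -0.35, immediate early -0.44, heat shock -0.60, collagens -0.40, elastic fibre -0.46, proteoglycans -0.41, matrix proteases -0.32, leukocyte adhesion -0.33, oxidative stress -0.32, TGF-beta -0.37, potassium and calcium channels 0.39, cell cycle 0.20, circadian -0.036, lipogenesis -0.36, fatty acid oxidation -0.23, respiratory chain -0.39, ribosomal proteins -0.47, splicing regulators -0.28, unfolded protein response -0.37 and hypoxia -0.52. Slide 1 alone gave neutrophil receptors 1.74, T cell 0.76, brown adipocyte -0.060, adipocyte -0.32, proteoglycans -0.43, matrix proteases -0.32, renin-angiotensin -0.065, TGF-beta -0.28, IGF -0.22, cell cycle 0.25, cholesterol synthesis -0.26, respiratory chain -0.36 and unfolded protein response -0.032. Slide 2 alone gave neutrophil receptors 0.055, platelet surface 0.97, T cell -0.82, brown adipocyte 0.35, adipocyte 0.36, steroid metabolism 0.088, glucocorticoid-induced -0.20, chemokines -0.92, renin-angiotensin -0.052, TGF-beta 0.024, IGF -0.085, potassium and calcium channels 0.15, cholesterol synthesis 0.14, lipogenesis 0.30, fatty acid oxidation 0.38, respiratory chain 0.28 and hypoxia 0.046. Leaving out 1 array at a time moved fibroblast genes from -0.18 to 0.021, circadian from -0.057 to 0.057, prostanoid from -0.21 to 0.037, androgen and progestin targets from -0.21 to -0.025, immediate early from -0.42 to -0.24, matrix proteases from -0.29 to -0.080, coagulation from -0.41 to -0.26 and elastic fibre from -0.24 to -0.035. The cause of these moves was not tested.

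Of 2383 values of 109 named genes, 2348 kept their sign and side of the threshold, 1 (S100a8 with the slide block) passed it and 34 changed sign. Normexp turned Agt to 0.067, Apoc4 to 0.23, Cyp2d10 to 0.050, Lhfpl2 to 0.10, Ptgs2 to 0.23, Serpind1 to 0.069, Tfpi to 0.043, Pf4 to -0.18, Acta2 to -0.33 and Myh11 to -0.40. Quantile normalization turned Acta2 to -0.0025 and Nr3c1 to 0.044, and the deposited table turned them to -0.029 and 0.025. Array weights turned Acta2 to -0.16 and Myh11 to -0.23; gene means turned Nr3c1 to 0.14. Slide 1 alone turned Cd74 to 0.086, Mt1 to 0.25 and Pf4 to -0.091; slide 2 alone turned Acta2 to -0.15, Myh11 to -0.13 and Nr3c1 to 0.17. Leaving out 1 array at a time gave ranges of -0.20 to 0.13 for Acta2, -0.14 to 0.18 for Myh11, -0.21 to 0.071 for Nr3c1, -0.015 to 0.51 for Pgr, -0.0062 to 0.25 for Apoe and -0.55 to 0.13 for Mt1. Dim signal limits the lowest levels, where the second MPA array had fewer spots well above background.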
